A study of Mus musculus with 6 samples.

Results

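A pair of mouse genes, each with transcripts that differed in opposite directions between the genotypes, was followed transcript by transcript: Eed (ENSMUSG00000030619) and Sirt3 (ENSMUSG00000025486). The libraries came from peritoneal macrophages of cKO mice, which lack Fbxo38 in their myeloid cells, and of WT littermates, with 3 libraries per genotype. Both genotypes received IL-13 together with IL-4 (20 ng/mL, 24 h) before RNA was taken, so no unstimulated group was compared. The strain, the age and sex of the mice and the Cre driver that deletes Fbxo38 do not appear in the sources used here. The deposited table holds 33539 transcripts of 16358 genes, each with a fold change of at least 2 in the authors' comparison of cKO with WT. All 12 of its transcripts assigned to these genes were taken, 5 of Eed and 7 of Sirt3. The genes were picked because the same cKO and WT libraries showed the exchange, so the differences between the genotypes are described and not tested. Levels are TPM, the number of transcripts of a kind per 1000000 transcripts of a library, as deposited. Read depth cannot be recovered from TPM and is unknown.

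EED is a WD40-repeat protein and a core subunit of Polycomb repressive complex 2 (PRC2), which methylates lysine 27 of histone H3. It holds the catalytic subunit EZH1 or EZH2 in the complex, binds trimethylated lysine 27 and stimulates the enzyme there. SIRT3 is an NAD-dependent deacetylase of mitochondria that acts on metabolic and antioxidant enzymes. Long and short forms of mouse SIRT3 have been described, and the long forms carry an N-terminal extension used for import into mitochondria. In macrophages, PRC2 is studied as a repressor of inflammatory and differentiation genes, and mitochondrial metabolism is a feature of the alternative activation that IL-4 and IL-13 drive.

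Facts of the libraries that touch these genes come first. The 7 listed transcripts of the targeted gene Fbxo38 summed to 6.14, 9.08 and 5.9 TPM in cKO 1 to 3, against 8.79, 11.8 and 12.4 TPM in WT 1 to 3, and the genotypes overlapped. Singly, ENSMUST00000048688, the listed reference transcript, was at 0.33, 0 and 0 TPM in cKO, against 0.36, 3.78 and 0.78 TPM in WT. MSTRG.8674.5 and MSTRG.8674.6 were also lower in every cKO than in every WT library. Such a split was found for 10.5% of all listed transcripts. The rest overlapped, with MSTRG.8674.3 above 0 only in cKO 2 and cKO 3. Whether the listed Fbxo38 transcripts cover the deleted exons is not given in the sources used here. WT 2 stood apart, with 4129 transcripts above 0 in it alone, against 954 to 2014 in the other libraries. The Y-linked gene Eif2s3y was at 35.6 to 45.1 TPM in the cKO libraries, at 51.2 TPM in WT 3 and listed at 0 in WT 1 and WT 2, so WT 3 was the only WT library with this transcript. Of 9 macrophage markers, Adgre1, Csf1r, Itgam and Aif1 have listed transcripts and the other 5 were not analysed here, so the cell label could be checked only in part. The 4 summed to 1.21, 4.74 and 4.02 TPM in cKO, against 6.48, 18.1 and 18.1 TPM in WT. Of 10 markers of resident large peritoneal macrophages, 6 have listed transcripts, which summed to 3.43, 5.83 and 4.32 TPM in cKO, against 7.89, 36.0 and 16.2 TPM in WT. Of 13 mesothelial and fibroblast markers, 11 have listed transcripts, which summed to 17.7 to 57.4 TPM in cKO and to 56.2, 475 and 136 TPM in WT. Of their mesothelial members, Msln was at most at 0.89 TPM and listed at 0 in cKO 3 and WT 3. Wt1 was at 1.87, 3.88 and 3.3 TPM in cKO and at 5.58, 24.4 and 8.91 TPM in WT. Krt8 was at 1.95, 6.36 and 6.82 TPM in cKO and at 10.2, 16.2 and 13.3 TPM in WT. Upk3b was at 0.78, 2.18 and 3.76 TPM in cKO and at 2.02, 16.2 and 3.88 TPM in WT. Krt19 was at 0.4, 0.36 and 2.11 TPM in cKO and at 1.18, 8.27 and 1.56 TPM in WT. Wt1 and Krt8 did not overlap between the genotypes, while Msln, Upk3b and Krt19 did. In bulk RNA, fewer cells of a type and less RNA per cell cannot be told apart.

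The sequences that distinguish the Sirt3 transcripts are shown first because ENSMUST00000147331, the transcript higher in cKO, shares all of its bases with other models and differs from them in how they are joined. Both genes lie on the minus strand of chromosome 7, and positions are from GENCODE M21 on GRCm38, matched by transcript identifier. The authors' build is not given in the sources used here. Sirt3 has 10 annotated transcripts, 6 of them listed. Of the 10, 7 are spliced from either an upstream or a downstream first exon, whose starts lie 440 nt apart in RefSeq. The other 3, 2 of them listed, are spliced from neither. Of these, ENSMUST00000210398 is a single unspliced exon that overlaps the upstream first exon and contains the downstream one. The downstream first exon is spliced to 3 different acceptors of the second exon, and the junctions below give its last 15 bases in lower case and the first 15 bases of the second exon in capitals.
Sirt3-205 (ENSMUST00000147331, listed, chr7:140878123-140881777, minus strand): tgtggggtccgggagGTGGGAGAAGGCCCA
Sirt3-202 (ENSMUST00000106048, not listed, chr7:140878131-140881777, minus strand): tgtggggtccgggagTGTTACAGGTGGGAG
Sirt3-204 (ENSMUST00000137710, listed, chr7:140878037-140881777, minus strand): tgtggggtccgggagGATGTAGCTGAGCTG

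The second exon of Sirt3-205 begins 8 nt inside that of Sirt3-202, and the 2 exons are 181 and 189 nt long. The downstream first exon holds a start codon upstream of the start codon that the annotation uses for the short form of 257 codons. In Sirt3-205 the 2 start codons are 231 nt apart and in frame, with 77 codons from one to the other and no stop codon in between. In Sirt3-202 they are 239 nt apart and out of frame, and the upstream frame stops after 65 codons. In Sirt3-204 they are 145 nt apart and out of frame, and the upstream frame stops after 35 codons. Sirt3-205 is therefore the listed model whose annotated coding sequence carries the N-terminal extension; it spans chr7:140869489-140881869 with 5 exons, has 258 annotated codons and ends before a stop codon, so its 3′ end is incomplete. The coding stretch that sets it apart is printed below, with both start codons in capitals.
Sirt3-205 extension (chr7:140878001-140881859, minus strand, spliced): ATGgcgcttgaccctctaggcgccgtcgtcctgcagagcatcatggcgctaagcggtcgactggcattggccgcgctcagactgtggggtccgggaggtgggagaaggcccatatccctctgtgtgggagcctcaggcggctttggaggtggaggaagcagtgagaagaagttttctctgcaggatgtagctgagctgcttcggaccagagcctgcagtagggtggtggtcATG

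**Figure D1:**
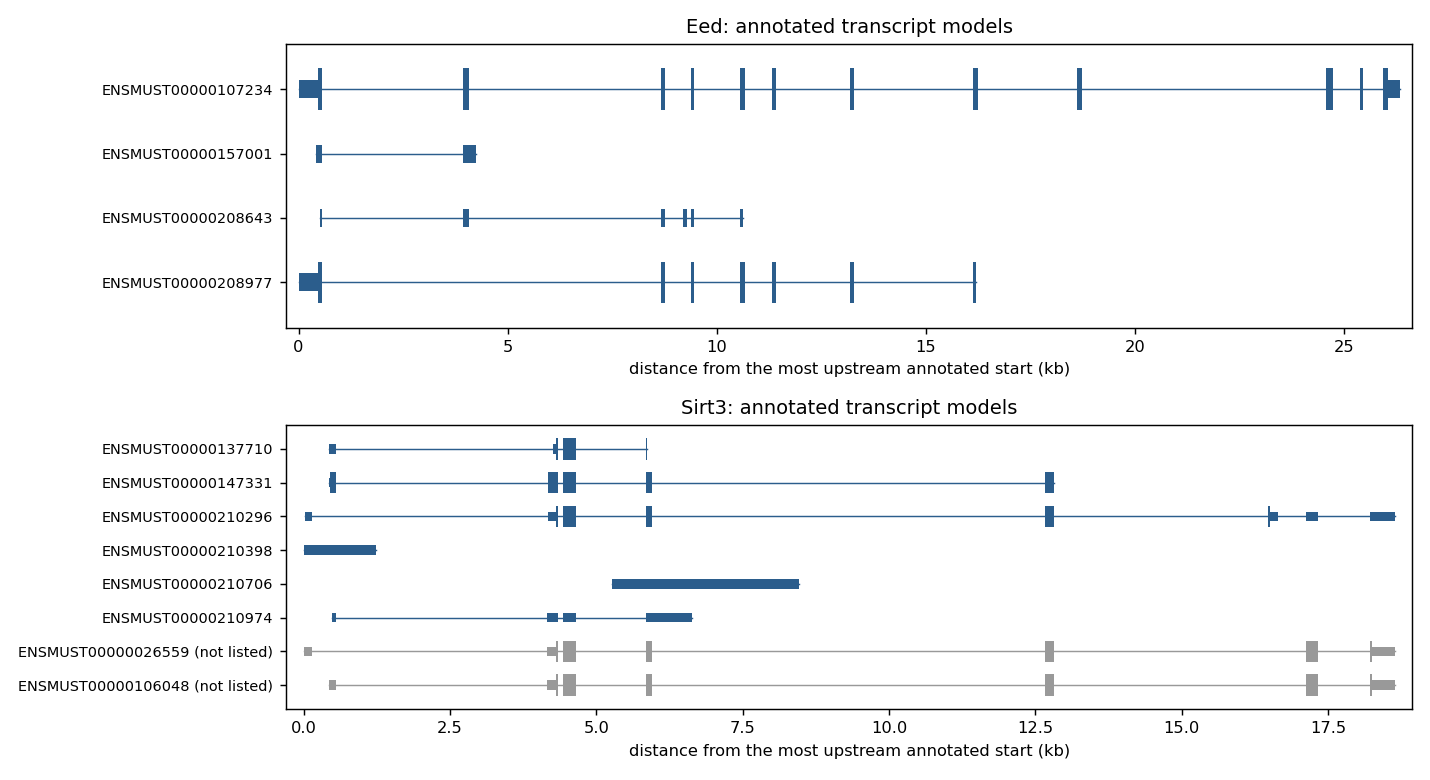
Annotated transcript models of Eed (top) and Sirt3 (bottom), drawn to scale against the distance in kb from the most upstream annotated start; thick boxes are coding, thin boxes are other exon sequence and lines are introns. Listed transcripts are blue and 2 unlisted Sirt3 models are grey; ENSMUST00000147331 starts at the downstream first exon, where its coding boxes also begin.

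Sirt3 was listed with 7 transcripts, of which ENSMUST00000147331 and the assembled transcript MSTRG.17105.5 carried most of the summed level. ENSMUST00000147331 was at 1.16, 2.62 and 1.19 TPM in cKO 1 to 3, and WT 1 to 3 were all listed at 0. In cKO it averaged 1.66 ± 0.834 TPM (SD, n = 3). MSTRG.17105.5 was listed at 0 in cKO 1 to 3, against 1.91, 1.05 and 1.63 TPM in WT 1 to 3. In WT it averaged 1.53 ± 0.439 TPM (SD, n = 3). Each transcript was thus present in every library of its genotype and listed at 0 in every library of the other, at low levels in both cases. MSTRG.17105.5 was assembled by StringTie and its exon structure does not appear in the sources used here. The sequence of this WT transcript is therefore not shown, and how it differs from Sirt3-205 is unknown.

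As a share of the summed listed Sirt3 level, ENSMUST00000147331 took 73.4%, 86.8% and 64.7% in cKO 1 to 3 and 0% in each WT library. MSTRG.17105.5 took 0% in each cKO library, against 76.7%, 42.9% and 66.8% in WT 1 to 3. The mean share of ENSMUST00000147331 was 74.9 percentage points higher in cKO. The total was much less divided: all 7 transcripts summed to 1.58, 3.02 and 1.84 TPM in cKO, against 2.49, 2.45 and 2.44 TPM in WT. These sums averaged 2.15 ± 0.767 TPM in cKO and 2.46 ± 0.0265 TPM in WT (SD, n = 3 each). The genotypes overlapped, since cKO 2 lay above every WT library and the other 2 cKO libraries lay below them. The difference of the sums on the log2(TPM + 1) scale was -0.16. It became 0.70 when the assembled transcript was left out, with reference transcripts at 1.58, 3.02 and 1.84 TPM in cKO and at 0.58, 1.4 and 0.81 TPM in WT.

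The other 5 Sirt3 transcripts were lower in level than 1.1 TPM in every library. ENSMUST00000137710, the coding fragment Sirt3-204 with the downstream first exon, was at 0.27, 0 and 0.31 TPM in cKO, against 0.37, 1.02 and 0.77 TPM in WT. Its genotypes did not overlap in TPM, but its share of the gene did: 17.1%, 0% and 16.8% in cKO, against 14.9%, 41.6% and 31.6% in WT. ENSMUST00000210296, annotated as a target of nonsense-mediated decay, is the only listed annotated transcript spliced from the upstream first exon. Its level was 0.08, 0.16 and 0.12 TPM in cKO, against 0.07, 0.12 and 0 TPM in WT. The remaining 3 are annotated as retained introns. Of these, ENSMUST00000210398 was at 0, 0.21 and 0.22 TPM in cKO, against 0.14, 0.09 and 0 TPM in WT. ENSMUST00000210706 was at 0, 0.03 and 0 TPM in cKO, against 0, 0.17 and 0.04 TPM in WT. ENSMUST00000210974 was above 0 only in cKO 1, at 0.07 TPM. For all 4 of these low transcripts the genotypes overlapped in TPM. In share, ENSMUST00000210296 did not overlap, at 5.06%, 5.30% and 6.52% in cKO, against 2.81%, 4.90% and 0% in WT.

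Grouped by first exon, the 3 listed transcripts spliced from the downstream exon summed to 1.5, 2.62 and 1.5 TPM in cKO, against 0.37, 1.02 and 0.77 TPM in WT. The unspliced ENSMUST00000210398, which runs across both first exons, was not counted in either group. The genotypes did not overlap, but this restates a transcript that chose the gene. ENSMUST00000147331 gave 1.16, 2.62 and 1.19 TPM of the cKO sums and 0 TPM of the WT sums. The WT sums were those of ENSMUST00000137710 alone, which was lower in cKO. MSTRG.17105.5, the largest WT transcript, entered neither group because its first exon is not given in the sources used here. Which start was used in each genotype was therefore not tested. The promoters of both starts are printed for reference, as the 250 bases before each RefSeq start on GRCm38.p6.
Sirt3 upstream start (chr7:140882310-140882559, minus strand): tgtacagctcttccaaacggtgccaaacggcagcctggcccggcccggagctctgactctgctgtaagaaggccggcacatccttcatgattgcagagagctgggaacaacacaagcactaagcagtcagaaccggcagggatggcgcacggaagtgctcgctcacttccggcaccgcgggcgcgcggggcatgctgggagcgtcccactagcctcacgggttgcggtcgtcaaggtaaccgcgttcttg
Sirt3 downstream start (chr7:140881870-140882119, minus strand): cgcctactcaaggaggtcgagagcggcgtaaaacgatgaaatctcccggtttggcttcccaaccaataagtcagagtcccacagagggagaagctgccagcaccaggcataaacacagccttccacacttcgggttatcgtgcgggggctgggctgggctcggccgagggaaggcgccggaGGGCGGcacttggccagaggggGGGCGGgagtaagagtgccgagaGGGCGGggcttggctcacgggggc
The capitals mark GGGCGG, the letters of the GC box, searched on both strands. It occurs 3 times before the downstream start and 0 times before the upstream start, and 32.7% of 32851 mouse promoters of this length hold it at least once. TATAAA, searched on both strands in the last 50 bases, is in neither, and 3.50% of promoters hold it there. Both windows are rich in GC, at 62.4% before the upstream start and 64.4% before the downstream start, with 21 and 18 CpG, where the median promoter has 52.4% GC and 6 CpG. These matches describe the letters in the windows and say nothing of which factors bind there.

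Eed was listed with 5 transcripts, of which ENSMUST00000238981 and ENSMUST00000107234 carried most of the summed level. ENSMUST00000238981 was at 3.47, 8.76 and 6.91 TPM in cKO 1 to 3, against 0.34, 0.81 and 0 TPM in WT 1 to 3. In cKO it averaged 6.38 ± 2.68 TPM (SD, n = 3). ENSMUST00000107234 was at 3.58 TPM in cKO 1 and listed at 0 in cKO 2 and cKO 3, against 8.16, 7.6 and 9.83 TPM in WT. In WT it averaged 8.53 ± 1.16 TPM (SD, n = 3). Neither transcript overlapped between the genotypes, and cKO 1 was the library in between, with both transcripts at nearly the same level.

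ENSMUST00000107234 is Eed-201, the full-length coding model at chr7:89954654-89980983, with 12 exons, 2067 nt and 441 codons. ENSMUST00000238981 has no entry in GENCODE M21, so its exons and coding potential are not described. The share of ENSMUST00000238981 in the summed Eed level was 45.6%, 100% and 100% in cKO, against 4%, 9.02% and 0% in WT. That of ENSMUST00000107234 was 47.0%, 0% and 0% in cKO, against 96%, 84.6% and 98.9% in WT. The mean share of ENSMUST00000238981 was 77.5 percentage points higher in cKO. Without cKO 1, the difference was 95.7 points.

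The summed Eed level was less divided than its parts. The 5 transcripts summed to 7.61, 8.76 and 6.91 TPM in cKO, against 8.5, 8.98 and 9.94 TPM in WT. They averaged 7.76 ± 0.934 TPM in cKO and 9.14 ± 0.733 TPM in WT (SD, n = 3 each), a ratio of 0.849, or -0.21 on the log2(TPM + 1) scale. The genotypes overlapped, since cKO 2 lay above WT 1. Rescaling the libraries by median ratios over the listed transcripts turned the sign of this difference for both genes, to 0.69 for Eed and 0.50 for Sirt3, so no direction is given for either sum.

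The other 3 Eed transcripts were minor. ENSMUST00000208643, a processed transcript of 528 nt, was at 0.56 TPM in cKO 1 and listed at 0 elsewhere. ENSMUST00000157001, a retained intron of 454 nt, was at 0.46 TPM in WT 2 and listed at 0 elsewhere. ENSMUST00000208977 (Eed-210), a coding model with an incomplete 3′ end, was at 0 TPM in cKO 1 to 3, against 0, 0.11 and 0.11 TPM in WT 1 to 3. It lacks the second exon of Eed-201, of 153 nt, a multiple of 3. That exon is printed because it is the internal coding exon that Eed-210 leaves out. The Eed-210 model also ends within the exon that is the eighth of Eed-201.
Eed-201 second exon (chr7:89976897-89977049, minus strand): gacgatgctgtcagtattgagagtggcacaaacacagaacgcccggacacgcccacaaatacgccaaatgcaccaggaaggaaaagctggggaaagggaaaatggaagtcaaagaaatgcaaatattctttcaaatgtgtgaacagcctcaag

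**Figure D2:**
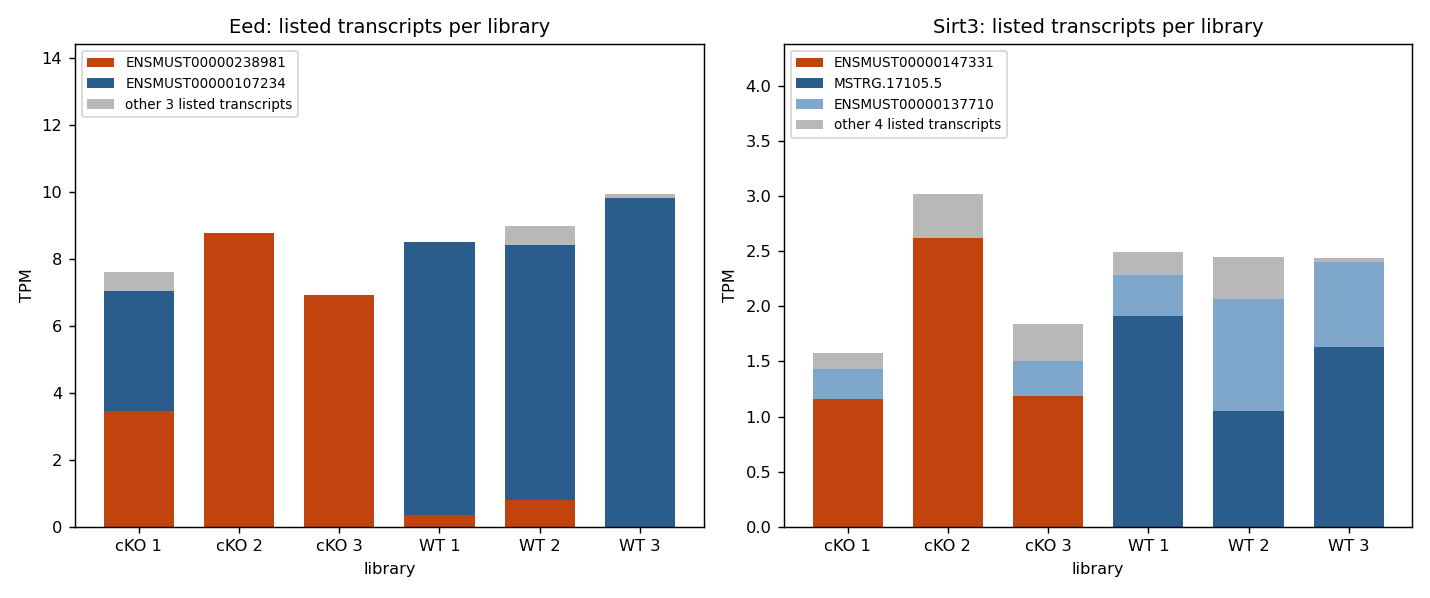
TPM of the listed transcripts of Eed (left) and Sirt3 (right), stacked per library, with cKO 1 to 3 left of WT 1 to 3; each bar is 1 library and its height is the summed listed level. The orange transcripts fill most of each cKO bar except cKO 1 for Eed, at 45.6%, and the dark blue transcripts are absent from the Sirt3 cKO bars, while the total heights overlap between the genotypes.

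The values that chose these genes are those of the authors' deposited table. It gives ENSMUST00000238981 of Eed a log2 fold change of 4.40 with an adjusted p of 7.46e-05. For Sirt3, the authors' deposited table gives ENSMUST00000147331 a log2 fold change of 7.03 with an adjusted p of 0.0281, and MSTRG.17105.5 one of -7.09 with an adjusted p of 0.0116. The Sirt3 values set TPM above 0 against a genotype listed at 0, so their size depends on how the authors handled 0. These 3 of the 12 transcripts had an adjusted p under 0.05, where 0.268% of all listed transcripts did. Of the 12, 2 were called higher, against 0.0984% of all listed transcripts, and 1 lower, against 0.17%. The next smallest adjusted p among the 12 was far from the threshold. It was that of ENSMUST00000107234 of Eed, for which the authors' deposited table gives -2.30 on the log2 scale and 0.99983 as the adjusted p. The listed transcript nearest to the limit of a 2-fold change was ENSMUST00000210398 of Sirt3, at a log2 fold change of 1.08 in the authors' deposited table. Since the genes were chosen on this contrast, nothing is read from these shares.

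Genotypes that did not overlap in TPM were found for 5 of the 12 transcripts, where 10.5% of all listed transcripts had such a split. The 5 are both Eed transcripts of the pair, both Sirt3 transcripts of the pair and ENSMUST00000137710. A level of at least 1 TPM in at least 3 libraries was reached by 4 of the 12, the transcripts of the 2 pairs, and among the 2050 listed transcripts that reached it 37% had genotypes that did not overlap. A limma test of those 2050 on log2(TPM + 1) called 0% of them at a Benjamini-Hochberg adjusted p under 0.05. Of the 2050, 472 had an unadjusted p under 0.05. Reads are divided among transcripts by a statistical model where exons are shared. In GENCODE M21, 99.4% of the bases of ENSMUST00000107234 and 100% of those of ENSMUST00000147331 are also in other models of their gene, which leaves few reads that are particular to either.

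The exchange was compared in size with other genes through an exchange share. For each gene listed in both directions, it is the TPM of the most abundant transcript higher in cKO, as a percentage of the sum of that and the most abundant transcript lower in cKO. It was computed for 299 of 4815 such genes, those with the pair at 1 TPM or more in every library. Sirt3 had an exchange share of 100% in each cKO library and 0% in each WT library, and its difference ranked 1 of the 299 genes. The rank holds only among genes that reached 1 TPM, a limit that Sirt3 passed narrowly, with a smallest pair sum of 1.05 TPM. Eed had exchange shares of 49.2%, 100% and 100% in cKO, against 4%, 9.63% and 0% in WT, and ranked 4. The targeted gene Fbxo38 ranked 22, and its genotypes overlapped in exchange share. Genotypes that did not overlap in exchange share were found for 30.1% of the 299 genes. The pairs were formed from the direction of change, so every gene leans the same way and the ranks are a description.

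**Figure D3:**
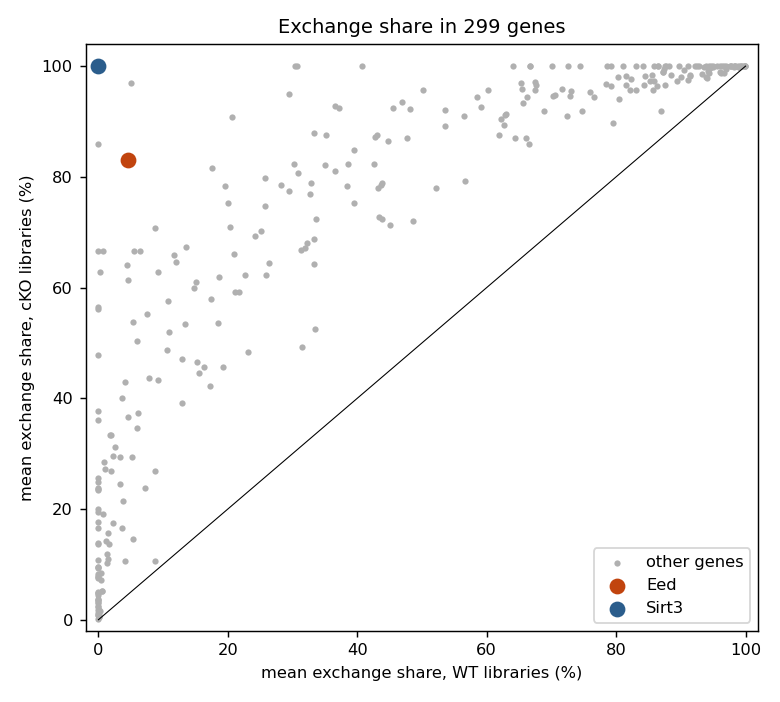
Mean exchange share in the 3 cKO libraries (vertical axis, %) against that in the 3 WT libraries (horizontal axis, %) for 299 genes, with equality as a line; genes lie above it because pairs were formed by direction. Sirt3 sits in the upper left corner at 100% in cKO and 0% in WT, and Eed sits near it at a cKO mean of 83.1% and a WT mean of 4.54%.

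Over the 6 libraries, the exchange shares closest to those of Sirt3 were those of Pja2, a ubiquitin ligase gene, at a mean absolute difference of 4.09 percentage points. Next came Tpra1 at 7.03, Eed itself at 10.7, Cipc, a repressor of the CLOCK protein, at 14.9 and Ptpa, an activator of protein phosphatase 2A, at 15.2 points. Closest to Eed were Srrm1, a splicing co-activator gene, at 9.56 points, Tmem39a at 10.02, Sirt3 at 10.7, Pja2 at 11.9 and Leng8 at 15.9 points. Eed and Sirt3 differed from each other chiefly in cKO 1, where Sirt3 was at 100% and Eed at 49.2%. Pja2 ENSMUST00000024889 was at 2.57, 4.4 and 2.31 TPM in cKO, against 0, 0.46 and 0.15 TPM in WT. Its other transcript, ENSMUST00000024888, was at 0, 0.45 and 0 TPM in cKO, against 3.68, 4.77 and 2.18 TPM in WT. In the authors' deposited table, Sirt3 was 1 of 2 genes with a called transcript in each direction, among 87 genes with any call. The other was Fbxo7, an F-box protein gene. Its transcript ENSMUST00000001837 was at 2.38, 0.6 and 2.07 TPM in cKO, with every WT library listed at 0. ENSMUST00000120344 was listed at 0 in cKO, against 0.38, 0.44 and 2.09 TPM in WT. These Fbxo7 transcripts were thus split as fully as the Sirt3 pair, but fell under 1 TPM in cKO 2, WT 1 and WT 2. A full split was therefore not particular to Sirt3.

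Other differences between libraries, in sex-linked transcripts and cell markers among them, were set beside the shares. Among libraries with the Y-linked transcript, the Eed share of ENSMUST00000238981 was 45.6%, 100% and 100% in cKO 1 to 3 and 0% in WT 3. In the same libraries the Sirt3 share of ENSMUST00000147331 was 73.4%, 86.8% and 64.7% in cKO and 0% in WT 3. The mesothelial and fibroblast markers summed to 17.7, 57.4 and 53.4 TPM in cKO 1 to 3, against 56.2, 475 and 136 TPM in WT 1 to 3. The lowest sum, in cKO 1, fell in the cKO library with the lowest Eed share of ENSMUST00000238981. It was also the lowest library for the macrophage and resident macrophage sums, at 1.21 and 3.43 TPM. Across genotypes the order did not hold, since WT 2 and WT 3 had higher sums and lower Eed shares than any cKO library. The sums of the macrophage and of the resident macrophage markers, lower in every cKO than in every WT library, split as the shares do. Taken singly, Adgre1, Itgam, Gata6 and Rarb split in this way. Csf1r, Aif1, Icam2, Selp, Tgfb2 and Thbs1 overlapped between the genotypes. The part of these markers in the exchange was not tested. WT 2, the library that stood apart, had an Eed share of 9.02% and a Sirt3 share of 0%, so the exchange was as large without it: the difference was 79.9 points for Eed and 74.9 points for Sirt3.

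The genes beside Eed and Sirt3 on chromosome 7 showed no called transcript in the authors' deposited table. Beside Eed, the 2 listed transcripts of Hikeshi and the 5 of Picalm each summed to at most 1.58 TPM in any library. Beside Sirt3, the 3 listed transcripts of Ric8a summed to 2.7, 0.49 and 2.09 TPM in cKO, against 0, 3.07 and 1.99 TPM in WT. On the other side, Psmd13, a proteasome subunit gene, had ENSMUST00000163610 at 10.1, 1.72 and 8.55 TPM in cKO, against 3.65, 0.78 and 0 TPM in WT. The order of the cKO libraries differed from that of Sirt3, for which cKO 2 was the highest library and not the lowest.

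The complexes and substrates of EED and SIRT3 were covered through the lists of their partner genes, and 0 transcripts of any list passed the limma test. The medians below are log2 differences of TPM + 1 and stand beside -0.39 for all 2050 tested transcripts, of which 1013 were higher and 1037 lower in cKO. Rescaling by median ratios moved that background by 1.08 to 0.69, so the medians are to be read against it. Over the whole table, 13215 transcripts are listed as higher and 20324, or 60.6%, as lower, and the listed counts below stand beside that share. Of the 13 other PRC2 genes, 12 have listed transcripts, 36 in all, 12 listed as higher and 24 as lower. Only 4 were tested, 2 higher and 2 lower, with a median of -0.21. Among them Jarid2 ENSMUST00000173246, an accessory subunit that guides PRC2 to its targets, was at 0.14, 0.21 and 0.8 TPM in cKO, against 1.2, 2.66 and 2.07 TPM in WT, a limma log2 difference of -1.11 ± 0.37 (SE) with an adjusted p of 0.209. The more abundant Jarid2 transcript MSTRG.4757.1 was at 14.3, 5.55 and 21.7 TPM in cKO, against 8.19, 166 and 8.15 TPM in WT. Its genotypes overlapped, and its limma adjusted p was 0.510. Ezh2 ENSMUST00000203857, of the catalytic subunit that EED activates, was at 1.72, 3.92 and 1.84 TPM in cKO, against 0.44, 2.39 and 1.07 TPM in WT, and its limma adjusted p was 0.328. The assembled Rbbp4 transcript MSTRG.12755.2, of a histone-binding subunit, was at 1.27, 1.57 and 1.79 TPM in cKO, against 1.08, 1 and 0.54 TPM in WT, with a limma adjusted p of 0.329.

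The lists around EED also held PRC1 and the enzymes that remove the marks. Of the genes of PRC1 and variant PRC1, 19 of 22 have listed transcripts, 16 listed as higher and 34 as lower. Only Ring1 ENSMUST00000172739 was tested, at 0, 0 and 0.25 TPM in cKO, against 2.19, 8.5 and 1.98 TPM in WT, with a limma log2 difference of -2.06 ± 0.50 (SE) and an adjusted p of 0.164. Of the demethylases of lysine 27 and the deubiquitinase of histone H2A, all 7 genes have listed transcripts, 11 higher and 17 lower. Only the Y-linked Uty was tested, at 1.4, 1.3 and 1.62 TPM in cKO, against 0, 0 and 1.65 TPM in WT, the split seen for Eif2s3y.

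Around SIRT3, all 6 other sirtuin genes have listed transcripts, 8 higher and 9 lower, and the 2 tested were both higher, with a median of 0.61. Sirt2 ENSMUST00000170068, of the mainly cytoplasmic sirtuin, was at 10.5, 7.42 and 11.8 TPM in cKO, against 5.34, 3.9 and 7.12 TPM in WT, with a limma adjusted p of 0.289. Sirt4 ENSMUST00000131121, of another mitochondrial sirtuin, was at 1.34, 2.14 and 1.07 TPM in cKO, against 0.51, 1.11 and 0.83 TPM in WT, with a limma adjusted p of 0.331. Of 30 genes taken as substrates of SIRT3, 21 have listed transcripts, 19 higher and 27 lower. The 5 tested, 1 higher and 4 lower, had a median of -0.82. That median is the value of Lcn2 MSTRG.9828.1, at 1.47, 1.17 and 0.16 TPM in cKO, against 2.33, 0.99 and 4.15 TPM in WT. Whether Lcn2 is a substrate of SIRT3 was not checked here. Opa1 MSTRG.7004.2, of the fusion protein of the inner mitochondrial membrane, was at 1.73, 1.66 and 0.93 TPM in cKO, against 3.21, 3.73 and 4.32 TPM in WT, a limma log2 difference of -0.97 ± 0.39 (SE) with an adjusted p of 0.209. Sdha ENSMUST00000161434, of respiratory complex II, and Aldh2 ENSMUST00000196694, of aldehyde oxidation, were also lower in all 3 cKO than in all 3 WT libraries. Their limma log2 differences were -0.86 and -0.78, with an adjusted p of 0.209 for each. Genotypes that did not overlap were found for 37% of the 2050 tested transcripts. Among the partner transcripts, Sirt2 ENSMUST00000170068 and Rbbp4 MSTRG.12755.2 split the other way, higher in every cKO than in every WT library. Sdha has 2 listed transcripts, 1 higher and 1 lower. Together they summed to 0.25, 0.75 and 3.02 TPM in cKO, against 1.22, 1.4 and 2.48 TPM in WT, and the genotypes overlapped. Hadhb ENSMUST00000141236, of fatty acid oxidation, was at 14.4, 17.9 and 10.3 TPM in cKO, against 10.8, 5.8 and 2.42 TPM in WT, with a limma adjusted p of 0.221.

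The supply of NAD, the co-substrate of SIRT3, had 11 of 15 genes listed, with 16 transcripts higher and 12 lower. The 4 tested, 2 higher and 2 lower, had a median of -0.47. Nadk ENSMUST00000105612, of NAD kinase, was listed at 0 in cKO, against 2.78, 2.79 and 1.02 TPM in WT. Of the 238 listed partner transcripts it alone was called in the authors' deposited table, where 0.268% of all listed transcripts were called. The call is therefore not read as a result about the partners. The authors' deposited table gives this Nadk transcript -9.09 on the log2 scale with 3.23e-07 as the adjusted p, while its limma adjusted p was 0.137. Slc25a51 ENSMUST00000116341, of the mitochondrial NAD carrier, was at 0, 0 and 2.99 TPM in cKO, against 4.43, 0 and 11.3 TPM in WT, with a limma adjusted p of 0.319. The other 2 tested transcripts belong to the same 2 genes. Nadk ENSMUST00000146080 was at 1.04, 1.94 and 0.32 TPM in cKO, against 0, 0.34 and 1 TPM in WT, and Slc25a51 ENSMUST00000132815 was at 0, 0.95 and 4.7 TPM in cKO, against 1.02, 1.33 and 0 TPM in WT. Of 11 classical deacetylase genes, 10 have listed transcripts, 10 higher and 23 lower, and none reached the level needed for the test. The most abundant of these, Hdac5 ENSMUST00000107152, was at 0.5, 0.45 and 0.71 TPM in cKO, against 0.67, 3.89 and 1.07 TPM in WT, and Hdac7 ENSMUST00000088402 stayed between 0.14 and 0.25 TPM in cKO and between 0.14 and 1.68 TPM in WT.

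**Figure D4:**
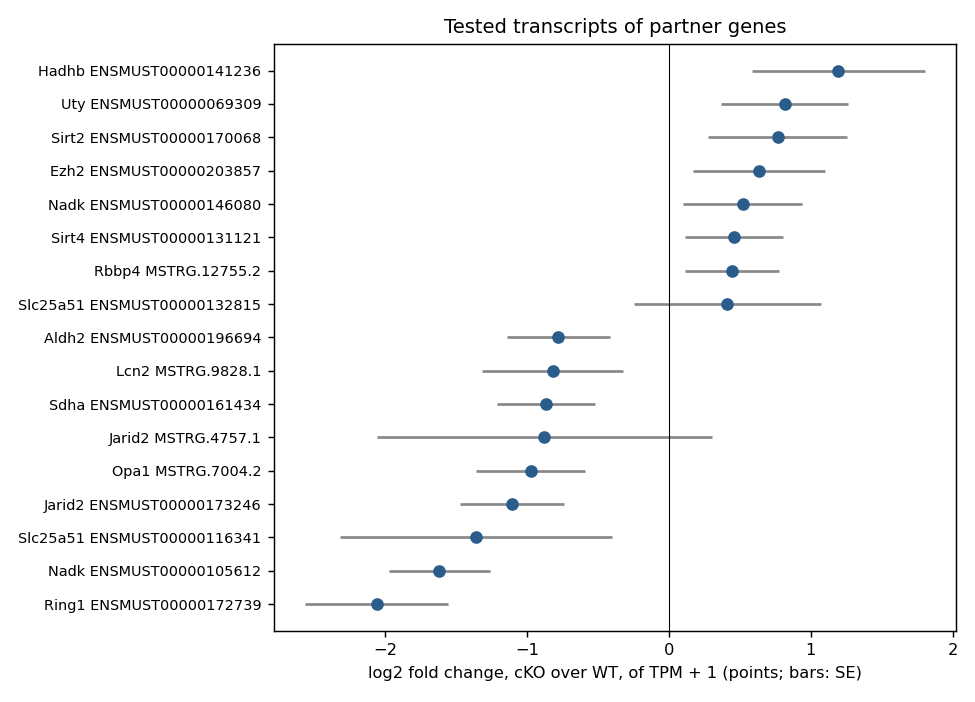
Log2 fold change of TPM + 1, cKO over WT, for the 17 tested transcripts of 14 partner genes of EED and SIRT3, as points with the SE of the limma fit over 3 cKO and 3 WT libraries as bars. Values run from -2.06 for Ring1 to 1.19 for Hadhb, and 0 of the 17 passed the adjusted threshold.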

How the data were processed

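Stranded libraries were made from polyadenylated RNA and read as pairs on a NovaSeq, per the labels' protocols, which name fastp for trimming, HISAT2 for alignment and StringTie for assembly. RSEM and DESeq2 are named, without versions or roles, per the submitters' processing notes. The authors deposited TPM per transcript and library, a ratio (fold change) of cKO over WT, the log2 of that ratio, and p-values with adjusted p-values. The smallest absolute deposited log2 fold change is 1.00, so the table was selected on the contrast and p-values computed on it are too small. Columns were matched to libraries through the labels, and 0 columns of per-sample values were left unmatched. The 3 libraries of a genotype are separate samples per the labels, which do not say which littermates form a pair.

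Shares, sums and exchange shares were computed from the TPM as deposited, and a share refers to listed transcripts only. Other transcripts of these genes were not analysed here. Transcripts with at least 1 TPM in at least 3 of 6 libraries were compared on log2(TPM + 1), a scale that understates changes of low transcripts, by limma 3.58.1 in R 4.3.3 with a mean-variance trend, two-sided, with Benjamini-Hochberg adjustment at 0.05. The script was tested on simulated data. Named were all transcripts of Eed and Sirt3, up to 4 transcripts of each partner list, 1 per gene, by smallest p (2 by level where none was tested), the 5 genes with the closest exchange shares, and genes called in both directions. The second Nadk and Slc25a51 transcripts, the 2 plotted MSTRG transcripts of Jarid2 and Lcn2, and the neighbouring genes fall outside this rule and were named after their values were seen. The members and lists were chosen with earlier results of these data known. Models came from GENCODE M21, which holds 4 of the 5 Eed and 6 of the 7 Sirt3 identifiers, and promoters from a RefSeq table on GRCm38.p6 with entries for both genes. Alternatives were leaving out each library, the replicate number as a block, median-ratio and quantile scaling, a pseudocount of 0.1, filters of 0.5 TPM or none, other denominators and reference transcripts only. The set of libraries with Y-linked transcripts was added after seeing the data. Python 3.11.15 with pandas 2.3.3, numpy 2.4.6 and matplotlib 3.10.9 was used for tables and figures.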

Additional observations from a re-analysis of the deposited data

How the results depend on the processing

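The mean share of ENSMUST00000238981 in Eed was 77.5 percentage points higher in cKO, and leaving out 1 library at a time gave 68.5 to 95.7. That of ENSMUST00000147331 in Sirt3 was 74.9 points higher, with 69.0 to 80.1 when 1 library was left out and 100 points when only the most abundant pair was counted. In libraries with Y-linked transcripts, where the lone WT library is assumed to vary like the others, the differences were 81.9 and 74.9 points. The log2 difference of the summed level was -0.21 for Eed, with a range of -0.29 to -0.14 when 1 library was left out, and 0.69 after median-ratio rescaling. For Sirt3 it was -0.16, with -0.35 to -0.03 when 1 library was left out, 0.50 after rescaling and 0.70 with reference transcripts only. Rescaling divides WT 2 by the largest factor, 2.71, and cKO 1 by the smallest, 0.571. The cause of the other changes was not tested. The limma count of 0 became 14 after rescaling, 3 after quantile normalization and 0 to 5 when 1 library was left out, 5 without cKO 2 and 1 without WT 3. It was 0 with a pseudocount of 0.1, a filter of 0.5 TPM, no filter, and the Y-linked libraries. Partner lists had 0 calls in every setting run. Of 120 values for fold changes of single transcripts, 4 came to 0 and the others kept their sign, and of 74 list medians 13 changed sign. With the replicate number as a block the limma count was 0, and shares and sums are unchanged by construction. Deviations of same-numbered libraries correlated at 0.135, -0.137 and -0.109, and 2 of 6 libraries correlated best with their own number, so the numbers were not taken to pair libraries. Depth is unknown, which limits what a transcript listed at 0 shows.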
